A study of Mus musculus with 24 samples.

Results

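Cxcl12, Il33, Cxcl5 and Ccl20 encode secreted or released signals for leukocytes, and their messenger RNA was followed through 4 groups of mouse embryonic fibroblasts (MEFs, connective tissue cells grown from embryos). The 4 genes were chosen by their symbol among the 3668 gene symbols that occur in the authors' 6 deposited tables of changed probes. Each gene has 3 reporters (oligonucleotide probes on the array), 12 in all, and each of those 12 is listed in at least 1 deposited table. Every measurement below comes from the values of these reporters in all samples.

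Cxcl12 is a chemokine that stromal cells such as fibroblasts release constantly, and it holds and attracts cells through the receptor Cxcr4, while Ackr3 takes it up. Cxcl5 attracts neutrophils through Cxcr2, and Ccl20 attracts lymphocytes and dendritic cells through Ccr6. Il33 belongs to the interleukin-1 family. It is kept in the nucleus of stromal and barrier cells and acts, when these cells are damaged, as an alarmin on the receptor Il1rl1.

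The cells came from 13.5-day embryos on a mixed C57BL/6 and 129Sv/J background and lacked p53 in every group, controls included. A self-excising CRE retrovirus turned E4F1 +/flox cells into E4F1 +/- controls and E4F1 -/flox cells into E4F1 -/- knockouts, and RNA was taken 3 days after that infection. The controls therefore carry 1 working copy of E4F1, a gene for a zinc finger protein with ubiquitin ligase activity, and they were exposed to CRE as well. In the second pair of groups the p53-/- cells had also been transformed with a retrovirus for Ha-RasV12, an always active form of the Ras signalling protein. The groups are called p53-/- control, p53-/- knockout, Ha-RasV12 control and Ha-RasV12 knockout. Each had 3 biological replicates, labelled A, B and C, on 12 2-colour arrays that carried knockout and control RNA of 1 letter together and were repeated with the dyes exchanged. The sources used here do not say whether a transformed population was 1 clone or many. Knockouts and controls started from cells of different E4F1 genotype. E4F1 loss therefore cannot be told apart from any other difference between these cell populations.

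Values are log2 intensities after quantile normalization of the 24 channels, averaged over both dyes of a sample. Of 5000 control probes of random sequence on each array, the median lay at 5.67 to 5.73 and the 95th percentile at 6.53 to 6.87, and a channel value at or under its own 95th percentile is called at the level of the control probes. That bound was chosen after the values had been seen. Between knockout and control cells E4f1 differed by -1.28 (SE 0.16, limma adjusted p = 0.0623) in p53-/- and -1.96 (SE 0.16, adjusted p = 0.000427) in Ha-RasV12 cells, for the brightest of its 6 reporters. In the knockouts 4 of 6 and 3 of 6 channel values of this reporter were at the level of the control probes, so that the size of these differences rests on values near background. Across these 6 reporters the change passed an adjusted p of 0.05 for 1 in p53-/- and 5 in Ha-RasV12 cells. The log2 ratios of exchanged dyes correlated across reporters at 0.507 to 0.724 in Ha-RasV12 cells and at -0.0402 to 0.0753 in p53-/- cells. Among the Ha-RasV12 replicates, A agreed least with the others, with correlations of its ratios of 0.0512 with B and 0.288 with C, against 0.41 between B and C. Of 10 fibroblast markers, 6 could be named on the array (Col1a1, Col3a1, Pdgfra, Dcn, Lum and Fn1), and none was at the level of the control probes in any group. Their summed intensity was 64400 to 76800 in the p53-/- samples and 40700 to 63900 in the Ha-RasV12 samples.

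The promoters of Cxcl12, Il33 and Ccl20 are shown from 250 bases before to 50 after the start of transcription. Cxcl12 and Il33 passed the test as higher in Ha-RasV12 knockouts than in their controls, and Ccl20 did not pass there. The sequences were taken from RefSeq on GRCm38.p6, where 3 of the 4 genes matched, and all lie on the + strand. The positions are chr6:117168285-117168584 for Cxcl12, chr19:29924863-29925162 for the upstream and chr19:29945540-29945839 for the downstream start of Il33, and chr1:83116516-83116815 for Ccl20. Capitals mark the only match to any of 3 motifs searched.
Cxcl12: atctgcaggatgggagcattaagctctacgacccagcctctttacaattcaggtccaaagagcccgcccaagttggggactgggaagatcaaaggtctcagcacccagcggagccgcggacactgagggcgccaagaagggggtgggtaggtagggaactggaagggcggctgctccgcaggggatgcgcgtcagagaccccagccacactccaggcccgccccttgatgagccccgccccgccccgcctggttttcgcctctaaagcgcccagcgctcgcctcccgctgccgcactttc
Il33 upstream start: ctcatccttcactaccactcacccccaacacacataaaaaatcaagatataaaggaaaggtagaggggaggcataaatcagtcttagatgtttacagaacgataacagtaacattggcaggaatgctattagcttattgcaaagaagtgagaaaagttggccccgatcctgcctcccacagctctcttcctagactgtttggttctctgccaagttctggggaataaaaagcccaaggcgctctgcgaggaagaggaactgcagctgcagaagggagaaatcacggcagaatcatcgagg
Il33 downstream start: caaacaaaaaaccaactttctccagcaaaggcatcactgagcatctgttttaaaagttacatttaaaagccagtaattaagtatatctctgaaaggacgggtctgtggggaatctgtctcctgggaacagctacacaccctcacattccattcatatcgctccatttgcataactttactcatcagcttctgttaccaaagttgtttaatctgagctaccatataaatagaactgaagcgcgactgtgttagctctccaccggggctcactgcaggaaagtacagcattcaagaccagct
Ccl20: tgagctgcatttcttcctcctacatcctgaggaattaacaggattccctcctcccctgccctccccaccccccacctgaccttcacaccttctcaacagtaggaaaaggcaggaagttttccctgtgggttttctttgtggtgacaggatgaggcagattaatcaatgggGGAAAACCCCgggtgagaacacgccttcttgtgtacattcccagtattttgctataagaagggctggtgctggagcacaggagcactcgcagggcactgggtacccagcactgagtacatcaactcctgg
Both strands were searched for TGACGT, the core of ATF-type sites, to which E4F1 was first described to bind, for TGANTCA, the AP-1 site, and for the NF-kB consensus. These motifs do not overlap in the windows shown, and they were chosen after the sequences had been seen. TGACGT and TGANTCA were not found in any of the 4 windows, and 7.51% and 7.81% of all 32851 promoters of this length hold them. The NF-kB consensus matched only in Ccl20, on the minus strand at bases 171 to 180 (position -80 from the start), and 4.51% of promoters hold it. A match is a run of letters and says nothing of binding in these cells.

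Cxcl12 was strongly expressed in p53-/- cells with or without E4F1, was far lower in Ha-RasV12 controls, and stood in Ha-RasV12 knockout cells at a level close to that of the p53-/- groups. The brightest reporter read 14.55, 13.34 and 13.22 (log2 intensity, replicates A, B and C) in p53-/- controls. It read 14.05, 13.78 and 13.90 in p53-/- knockouts. It read 10.25, 9.76 and 10.11 in Ha-RasV12 controls and 14.30, 13.72 and 13.88 in Ha-RasV12 knockouts. The 3 Ha-RasV12 controls lay apart below all 9 other samples, which overlapped each other. The group means were 13.71 ± 0.73, 13.91 ± 0.13, 10.04 ± 0.25 and 13.97 ± 0.30 (SD, n = 3) in the same order. On the linear scale these correspond to intensities of 13400, 15400, 1050 and 16000.

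**Figure D1:**
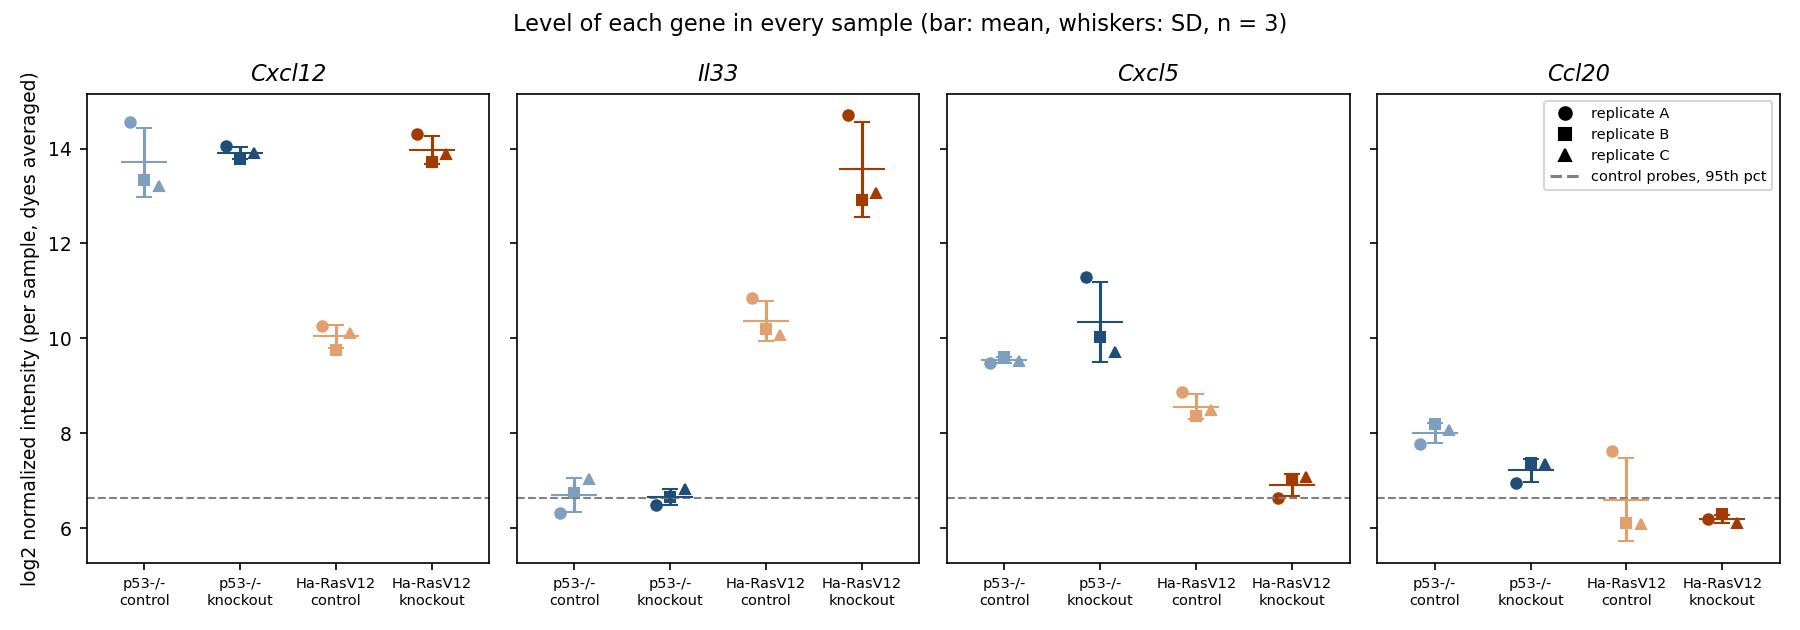
Log2 normalized intensity of the brightest reporter of Cxcl12, Il33, Cxcl5 and Ccl20 (1 panel each) in the 4 groups. Points are samples with dyes averaged, horizontal bars are means, whiskers are SD (n = 3), and the dashed line is the 95th percentile of the control probes. The Ha-RasV12 controls are the low group for Cxcl12, and Il33 lies near the dashed line in both p53-/- groups.

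Cxcl12 was higher in Ha-RasV12 knockouts than in Ha-RasV12 controls by 3.93 on the log2 scale (15.2-fold, SE 0.22, limma adjusted p = 6.32e-05 over 132488 reporters). The other reporters gave 4.07 and 4.58, so that all 3 passed the test as higher, where 1.37% of all tested reporters did. All 18 ratios of knockout to control, 3 reporters on 6 arrays, were above 0 and ran from 3.43 to 4.90. By replicate the brightest reporter rose by 4.05, 3.96 and 3.77, a narrow spread against the size of the change. In p53-/- cells the same reporter differed by 0.20 (SE 0.22, 95% interval -0.29 to 0.69, adjusted p = 1), with replicate ratios of -0.50, 0.44 and 0.67. The 3 reporters ran from -0.17 to 0.20 there and 0 passed (0.0234% of all did), and the sign was not the same in all replicates. Knockout minus control was larger in Ha-RasV12 than in p53-/- cells by 3.73 to 4.74, and this difference passed the test for all 3 reporters (highest adjusted p = 0.00311), with 0.407% of all tested reporters.

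The controls of the backgrounds already differed. Cxcl12 was lower in Ha-RasV12 than in p53-/- controls by -3.67 (12.7-fold, SE 0.30, adjusted p = 2.53e-05), and the 3 reporters ran from -4.16 to -3.67 and all passed, with 4.16% of all tested reporters past this test. The backgrounds were hybridised on separate arrays, so that background and array set cannot be told apart in any comparison of levels between them. Between the knockout groups, a comparison added after the data had been seen, Cxcl12 differed by 0.06 (SE 0.30, 95% interval -0.60 to 0.71, adjusted p = 0.957). The third reporter gave 0.76 (95% interval 0.20 to 1.33, adjusted p = 0.13), so that 0 of 3 reporters passed, against 4.28% of all, and the intervals reach up to 1.33.

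Il33 followed another course: it was near the background of the array in p53-/- cells, higher in Ha-RasV12 controls, and highest in Ha-RasV12 knockouts. Its brightest reporter read 6.32, 6.75 and 7.03 in p53-/- controls and 6.48, 6.66 and 6.82 in p53-/- knockouts. In each of these groups 3 of the 6 channel values were at the level of the control probes. It read 10.85, 10.19 and 10.06 in Ha-RasV12 controls and 14.71, 12.91 and 13.07 in Ha-RasV12 knockouts. The groups of the Ha-RasV12 background did not overlap each other or the p53-/- samples, and replicate A was the highest in both. The means were 6.70 ± 0.36, 6.65 ± 0.17, 10.36 ± 0.42 and 13.56 ± 1.00 (SD, n = 3).

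Il33 was higher in Ha-RasV12 knockouts than in Ha-RasV12 controls by 3.20 on the log2 scale (9.2-fold, SE 0.22, adjusted p = 0.000153). The 3 reporters gave 3.20 to 3.28 and all passed, with all 18 array ratios above 0, from 1.89 to 4.39. By replicate the rise was 3.87 in A, 2.72 in B and 3.02 in C. It varied more among replicates than the rise of Cxcl12, and without replicate A it was 2.87, still past the test. In p53-/- cells the change was -0.05 (SE 0.22, 95% interval -0.53 to 0.44, adjusted p = 1), near the control probes, where a fall could not be measured. Both SE come from a spread shared by the backgrounds, while the replicate ratios had SD 0.60 in Ha-RasV12 and 0.19 in p53-/- cells. The difference between backgrounds was 3.25 to 3.37 and passed for all 3 reporters (highest adjusted p = 0.0178). It passed for 1 reporter when p53-/- replicate A was left out and for 0 when replicate B or C was (lowest adjusted p = 0.0575 and 0.0528).

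Il33 was higher in Ha-RasV12 than in p53-/- controls by 3.66 for the brightest reporter (12.7-fold, SE 0.40, adjusted p = 0.000164). The other reporters were at the level of the control probes in all 6 channels of the p53-/- controls, so that they give bounds only. With the dim group set at the higher of the control-probe bound and its own value, Il33 was at least 5.17-fold and at least 7.69-fold higher by these reporters. Between the knockout groups the difference was 6.91 (SE 0.40, adjusted p = 1.25e-06) for the brightest reporter. In the p53-/- knockouts 3 of 6 channel values of this reporter, and 5 and 4 of 6 of the others, were at the level of the control probes, so that the size of the difference rests on values near background.

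Cxcl5 was the member that passed the test as lower in Ha-RasV12 knockouts than in Ha-RasV12 controls. Its brightest reporter read 9.49, 9.61 and 9.53 in p53-/- controls and 11.30, 10.02 and 9.72 in p53-/- knockouts. It read 8.86, 8.36 and 8.48 in Ha-RasV12 controls and 6.64, 7.03 and 7.07 in Ha-RasV12 knockouts. The Ha-RasV12 knockouts were the lowest group with no overlap, and replicate A of the p53-/- knockouts stood above its group. The means were 9.54 ± 0.06, 10.34 ± 0.84, 8.56 ± 0.26 and 6.91 ± 0.24 (SD, n = 3).

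The fall in Ha-RasV12 cells was -1.65 (3.14-fold, SE 0.30, adjusted p = 0.0245) by this reporter. In this direction 0.882% of all tested reporters passed. The other Cxcl5 reporters gave -2.73 (SE 0.37, adjusted p = 0.0059) and -2.61 (SE 0.35, adjusted p = 0.00544). In Ha-RasV12 knockouts these were at the level of the control probes in 5 of 6 channels, so that the size of their fall depends on values near background. All 18 array ratios were below 0, from -3.95 to -0.70. The fall passed the test for 0 of 3 reporters when the Ha-RasV12 ratios were fitted without the p53-/- ones (adjusted p 0.1 to 0.106). That fit had fewer replicates to estimate the spread and no spread shared with p53-/- cells. The brightest reporter had SE 0.23 in it, and the cause of the miss was not tested. The fall passed for 2 of 3 without Ha-RasV12 replicate C, where the brightest reporter missed the threshold (adjusted p = 0.0907). With the knockout in Cy5 only, 2 of 3 passed, and the brightest reporter gave -1.25 (adjusted p = 0.115).

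In p53-/- cells knockout minus control was 0.80 for Cxcl5 (SE 0.30, unadjusted p = 0.0249, adjusted p = 1), which did not pass. Replicate A gave 1.81 against 0.41 in B and 0.19 in C, and without A the value was 0.30. The other reporters gave 0.51 and 0.39. The difference between backgrounds was -3.24 and -3.01 for the reporters that passed (adjusted p = 0.0386 and 0.0412) and -2.45 for the brightest, which did not (adjusted p = 0.0521). Without any 1 of the p53-/- replicates, 0 of 3 reporters passed, and the same held with the backgrounds paired by replicate letter (adjusted p 0.0869 to 0.112) or the dimmest 25% of reporters left out (0.0562 to 0.0696). On the deposited scale 3 of 3 passed (0.0322 to 0.0466). Between the controls, Ha-RasV12 minus p53-/- was -0.98 (SE 0.32, adjusted p = 0.13), which did not pass for any reporter. It passed for 2 of 3 without Ha-RasV12 replicate A (lowest adjusted p = 0.0264) and for 1 of 3 without p53-/- replicate A (0.0425). Between the knockout groups the difference was -3.43 (10.8-fold, SE 0.32, adjusted p = 6.5e-05), with all 3 reporters past the test.

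**Figure D2:**
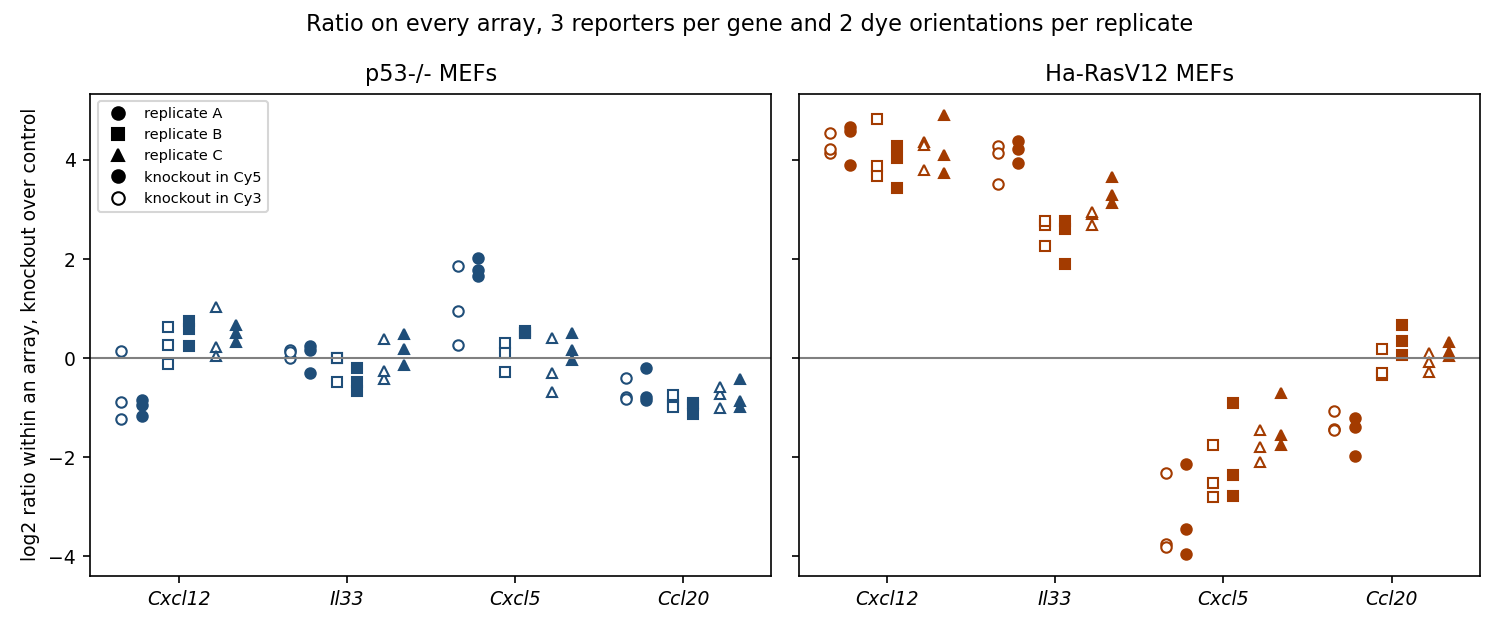
Log2 ratio of knockout to control on every array for each gene, in p53-/- (left) and Ha-RasV12 cells (right), with 3 reporters per array. Circles, squares and triangles are replicates A, B and C, and filled symbols have the knockout in Cy5, open ones in Cy3. All Cxcl12 and Il33 ratios in Ha-RasV12 cells are above 0 and all Cxcl5 ratios there are below 0, while the Ccl20 ratios in p53-/- cells all lie between -1.13 and -0.20.

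Ccl20 was weak in all groups and is the member that the authors list in p53-/- cells. Its brightest reporter read 7.78, 8.19 and 8.06 in p53-/- controls and 6.95, 7.37 and 7.35 in p53-/- knockouts. It read 7.62, 6.10 and 6.09 in Ha-RasV12 controls and 6.19, 6.29 and 6.10 in Ha-RasV12 knockouts. In the Ha-RasV12 groups 4 and 5 of 6 channel values were at the level of the control probes, and both channels of control replicate A were above it. The means were 8.01 ± 0.21, 7.22 ± 0.24, 6.60 ± 0.88 and 6.19 ± 0.09 (SD, n = 3).

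In p53-/- cells knockout minus control was -0.79 for Ccl20 (1.73-fold, SE 0.27, unadjusted p = 0.0168, adjusted p = 1), which did not pass over all reporters. The replicate ratios were -0.83, -0.82 and -0.71, and all 18 array ratios over 3 reporters were below 0, although the 6 channel values per group overlapped for 2 of the 3 reporters. The authors' deposited limma table lists all 3 reporters at -0.77, -0.79 and -0.72 with adjusted p of 0.00957, 0.00957 and 0.0282, and this table holds 0.372% of the reporters. The authors' deposited SAM lists hold them with q of 0.0549 to 0.0742. Their log2 changes are close to those above. How the authors treated exchanged dyes and which probes they tested is not stated, and its part in the difference in p was not tested. The SE of 0.27 comes from a spread shared by both backgrounds, while the replicate ratios had SD 0.07 in p53-/- and 0.89 in Ha-RasV12 cells. With p53-/- ratios fitted alone, the SE was 0.12 for the brightest reporter and the limma adjusted p was 0.0788 to 0.17. The part of the shared spread in the difference from the authors' p was not tested either. With all 12 arrays taken as independent, the adjusted p was 0.326 to 0.477. In Ha-RasV12 cells the change was -0.41 (SE 0.27, 95% interval -1.02 to 0.20, adjusted p = 0.583). Replicate A gave -1.43 against 0.19 and 0.02 in B and C, and without A the value was 0.10. The difference between backgrounds was 0.28 to 0.41 and did not pass (lowest adjusted p = 0.841).

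Ccl20 was lower in Ha-RasV12 than in p53-/- controls by -1.41 (SE 0.33, adjusted p = 0.0295), and all 3 reporters passed. This rests on values at the control probes in Ha-RasV12 cells, and it passed for 0 reporters without p53-/- replicate B (lowest adjusted p = 0.0523). It passed for 1 without p53-/- replicate A or C or Ha-RasV12 replicate B or C. Between the knockout groups the difference was -1.03 (SE 0.33, adjusted p = 0.109), and 1 of 3 reporters passed. That reporter was at the level of the control probes in all 6 channels of the Ha-RasV12 knockouts, which makes Ccl20 at least 1.62-fold lower there. The difference between the knockout groups passed for 0 reporters without p53-/- replicate A, B or C (lowest adjusted p = 0.0774, 0.11 and 0.109) and for 3 of 3 without Ha-RasV12 replicate A.

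The order of the group means differed from gene to gene. For Cxcl12 the Ha-RasV12 controls were lowest, and the p53-/- groups were not separated from each other, nor the knockout groups. For Il33 the order ran from both p53-/- groups, not separated from each other, through Ha-RasV12 controls to Ha-RasV12 knockouts. For Cxcl5 the Ha-RasV12 knockouts were lowest, and no test passed between the p53-/- groups or between the control groups. The control groups' channel values did not overlap for 2 of 3 Cxcl5 reporters. The share of all reporters for which this held was not counted, so that no difference is read from it. The limma adjusted p was 0.0719 to 0.245 there. For Ccl20 the p53-/- controls were highest, and the step to the p53-/- knockouts did not pass the test.

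**Figure D3:**
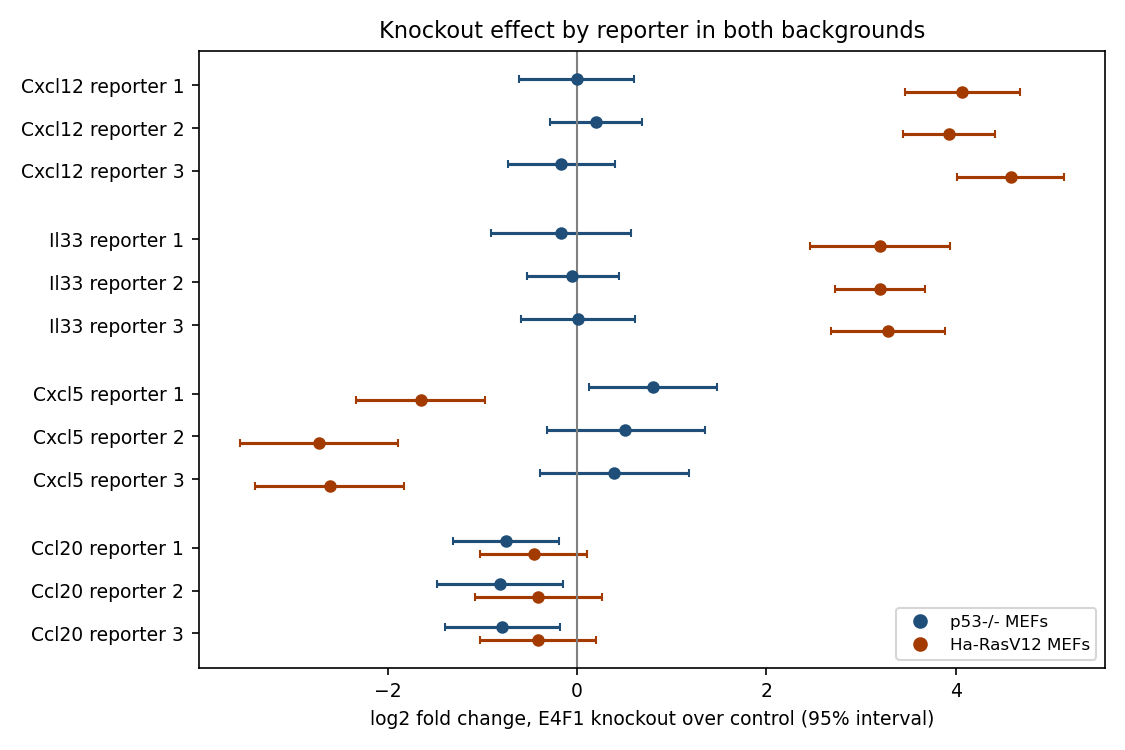
Log2 fold change of knockout over control for each of the 12 reporters, with 95% intervals from the limma fit, in p53-/- (blue) and Ha-RasV12 cells (orange). The 3 reporters of a gene lie on the same side of 0 in Ha-RasV12 cells for every gene, and only the Ccl20 intervals cross 0 there. In p53-/- cells the intervals of all Cxcl12 and Il33 reporters cross 0.

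Of the 12 reporters, 0 passed the test of knockout against control in p53-/- cells, where 0.0234% of all 132488 tested reporters did (31, and 4129 at an unadjusted p under 0.05). In that comparison 1 member reporter had groups of 6 channel values that did not overlap, against 0.503% of all. In Ha-RasV12 cells 6 rose and 3 fell, where 2.25% of all reporters passed, and the same 9 did not overlap against 2.76% of all. The difference between backgrounds passed for 8, with 0.407% of all. The control groups differed for 9, with 4.16% of all, and the knockout groups for 7, with 4.28% of all. The genes were named from the authors' lists of changed probes, so that these shares had to exceed the background in the comparison that listed them. The difference between backgrounds holds the same ratios, and the comparisons of levels share the same channel values. Their shares are therefore not independent of the listing either. The authors' deposited tables list Cxcl12, Il33 and Cxcl5 for Ha-RasV12 cells, where their limma table holds 3.55% of reporters, and Ccl20 for p53-/- cells. The median change of all reporters was 0.00 in p53-/- and -0.01 in Ha-RasV12 cells.

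Other genes of these pathways were drawn from 5 lists with 134 genes. Only 13.3% of tested reporters could be given a gene name, and this left 24 list genes besides the 4 members. Of these 24, 22 have a name because a reporter of their transcript is in a deposited table of changed probes, so that the counts say little of the lists as wholes. Counted by the brightest reporter of each gene, 0 of 24 passed the test in p53-/- cells, where 0.0234% of all tested reporters did. In Ha-RasV12 cells 3 rose and 0 fell, where 1.37% of all tested reporters passed as higher and 0.882% as lower. Cxcr4, Cxcr2, Ccr6, Il1rl1, Il1rap and Dpp4 were not analysed here.

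Among 8 other chemokines, Ccl2, which attracts monocytes, was higher in Ha-RasV12 knockouts than in their controls by 1.93 (SE 0.39, adjusted p = 0.0374), from 12.40 ± 0.59 to 14.33 ± 0.73 (SD, n = 3). It differed by -0.04 (SE 0.39) in p53-/- cells, and the difference between backgrounds did not pass (1.97, adjusted p = 0.261). Ccl7, another monocyte attractant, chosen after its value was seen, gave 2.55 (SE 0.62, adjusted p = 0.0763), from 9.88 ± 1.68 to 12.43 ± 0.85. Like Cxcl12, Ccl7 was lower in Ha-RasV12 than in p53-/- controls, by -3.06 (SE 0.64, adjusted p = 0.0153). The median change of the 8 chemokines in Ha-RasV12 cells was 0.40, and 6 of them have a name through the deposited tables of changed probes.

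Ppbp and Cxcl15, neutrophil attractants of the same CXC subgroup as Cxcl5, were lower in Ha-RasV12 than in p53-/- controls, by -4.16 (SE 0.42, adjusted p = 9.58e-05) and -2.48 (SE 0.24, adjusted p = 8.09e-05). Both were at the level of the control probes in all 6 channels of the Ha-RasV12 controls, which makes them at least 14.4-fold and at least 2.78-fold lower there. Knockout minus control of Ppbp was 1.21 (SE 0.26, adjusted p = 0.791) in p53-/- cells and 0.47 (SE 0.26, adjusted p = 0.488) in Ha-RasV12 cells, and neither passed. These genes were chosen after their values were seen.

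Of the proteases that cut chemokines, Mmp2, which inactivates Cxcl12 by trimming its end, rose in Ha-RasV12 cells by 2.76 (SE 0.16, adjusted p = 7.09e-05). Its means were 11.90 ± 0.68, 11.69 ± 0.53, 9.05 ± 0.37 and 11.81 ± 0.62 (SD, n = 3) from p53-/- controls to Ha-RasV12 knockouts, low only in the Ha-RasV12 controls. The change in p53-/- cells was -0.21 (SE 0.16, adjusted p = 1), and the difference between backgrounds was 2.97 (SE 0.23, adjusted p = 0.00126). Mmp9 rose by 1.58 (SE 0.33, adjusted p = 0.0441), in 1 of 3 reporters, and was at the level of the control probes in all 6 channels of the Ha-RasV12 controls, so that it was at least 1.65-fold higher in knockouts. The scavenging receptor Ackr3 differed by 0.33 and 0.31 (SE 0.65 each) and passed in neither background.

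The list of interleukin-1 family genes and alarmins left Il1rn, an antagonist of the family, Il18, an inducer of interferon gamma, and Tslp, an epithelial alarmin. In Ha-RasV12 cells their log2 differences were -0.30 (SE 0.39), 0.37 (SE 0.32) and -0.40 (SE 0.95), and none passed in either background. Of 7 genes of NF-kB signalling and inflammatory cytokines, 0 passed by their brightest reporter, with a median change in Ha-RasV12 cells of 0.69. All 7 have a name because a reporter of their transcript is in a deposited table of changed probes. Their median can therefore not be set against that of all reporters. Csf1, the macrophage growth factor, gave 1.07 (SE 0.32, adjusted p = 0.143), and Il15, a lymphocyte growth factor, gave 0.64 (SE 0.17, adjusted p = 0.0976) with 3 of its 6 reporters past the test. Both were chosen after their values were seen.

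**Figure D4:**
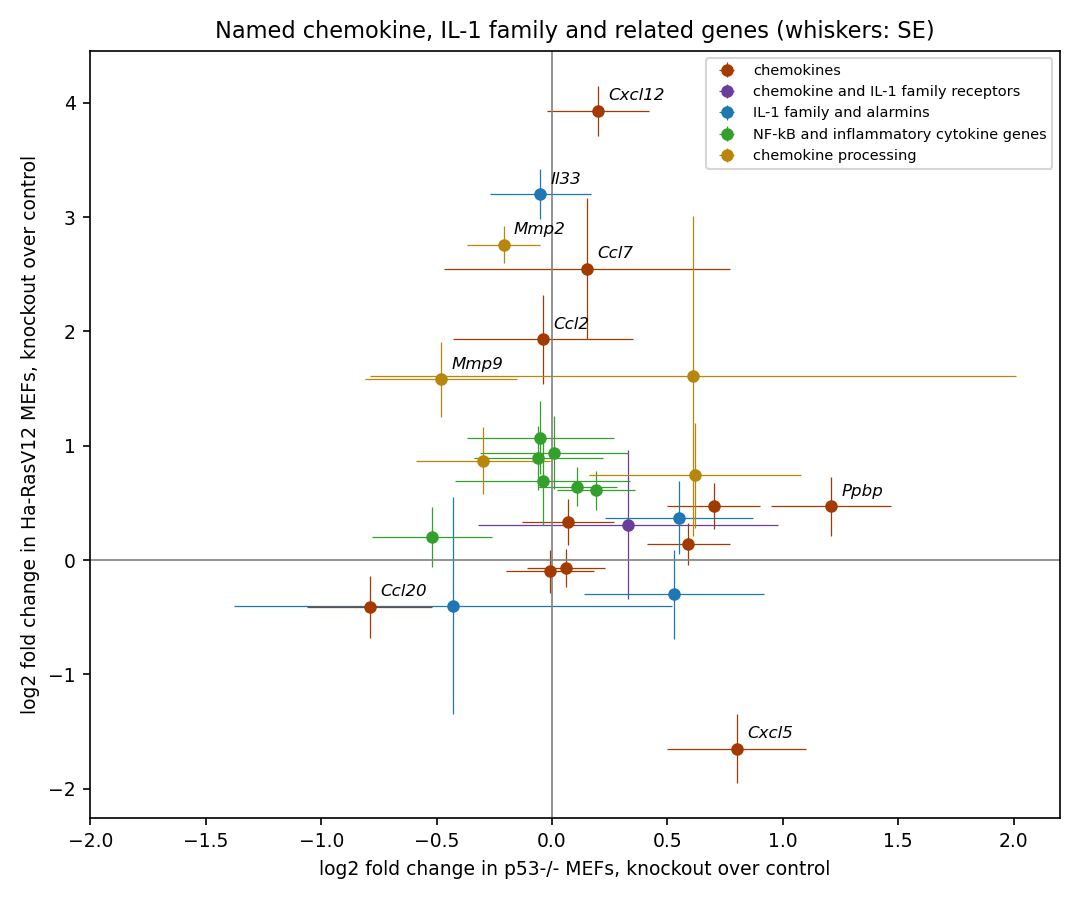
Log2 fold change of knockout over control in p53-/- (horizontal axis) and Ha-RasV12 cells (vertical axis) for the 28 named list genes, with SE whiskers and colours by list. Cxcl12, Il33 and Mmp2 lie high on the vertical axis and near 0 on the horizontal one, and Cxcl5 is the lowest on the vertical axis.

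The genes whose levels followed each member most closely were sought among 3866 named genes over the 12 samples, which fall into 4 groups that carry most of the correlation. For Cxcl12 they included Mmp2 and Maged2 (Pearson r = 0.971 each), Gyg (0.967) and Bgn (0.958), the last a matrix proteoglycan. Bgn had means of 14.84, 14.90, 13.41 and 15.11. For Il33 they were Ucp1 (0.983), Mcpt8 (0.979), Rad54b (0.976), Tmod1 (0.976) and Xdh (0.975). Ucp1, the uncoupling protein of brown fat, had means of 5.66, 5.68, 9.18 and 12.55, the first pair at the level of the control probes. For Cxcl5 they were Rnaset2a (0.954), Ssu72 (0.934), Tapbpl (0.934), H1f2 (0.932) and H2aw (0.927), whose changes in Ha-RasV12 cells ran from -1.30 to -0.38. For Ccl20 they were Iqgap1 (0.972), Dpysl3 (0.963), Tns1 (0.947), Nucks1 (0.935) and Glipr1 (0.931). Among the members, Il33 and Cxcl5 ran opposite to each other (r = -0.93, n = 12), and Cxcl12 followed none of the others (-0.16 to 0.25). Ccl20 had r = -0.74 with Il33 and 0.65 with Cxcl5. Il33 lay near the control probes in both p53-/- groups.

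Markers of other cell types were read beside these changes. Of 8 neutrophil and mast cell markers, 1 could be named: Ly6g had intensities of 73.9 to 117 in p53-/- samples, 471 to 692 in Ha-RasV12 controls and 125 to 280 in Ha-RasV12 knockouts. The summed intensity of 2 of 8 endothelial markers, Flt1 and Cd34, was 988 to 1420 in p53-/- samples, 2170 to 5390 in Ha-RasV12 controls and 1400 to 2230 in Ha-RasV12 knockouts. That of 3 of 8 epithelial markers, Epcam, Krt7 and Krt19, was 1260 to 1980, 2940 to 18200 and 1740 to 2970 in the same order, with Epcam at the control probes in p53-/- cells. That of 3 of 6 skeletal muscle markers, Myh3, Acta1 and Des, was 1270 to 3430 in p53-/- samples, 238 to 330 in Ha-RasV12 controls and 338 to 617 in Ha-RasV12 knockouts. Myh3 was at the level of the control probes in every group, and Des in both Ha-RasV12 groups. The macrophage markers Ptprc and Cd53, 2 of 10, summed to 162 to 438 in all samples, with Ptprc at the control probes in p53-/- controls. Of the lymphocyte markers, 0 of 8 could be named. These levels differed with the Ha-RasV12 background and, in part, between knockouts and controls, and their part in the results was not tested. In bulk RNA, fewer cells of a type and less RNA per cell cannot be told apart.

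The 4 genes lie on different chromosomes, Cxcl12 on 6, Il33 on 19, Cxcl5 on 5 and Ccl20 on 1. Among other named genes that passed the test in Ha-RasV12 cells, 52.9% of 51 on chromosome 6 were higher in knockouts, against 63.2% elsewhere. The shares were 55.6% of 18 on chromosome 19 (62.7% elsewhere), 58.3% of 36 on chromosome 5 (62.8% elsewhere) and 35.1% of 37 on chromosome 1 (63.9% elsewhere). This count was added after the data had been seen, and most of the named genes come from the authors' own lists.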

How the data were processed

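RNA of 24 channel samples (4 groups, 3 biological replicates, 2 dyes) was measured on 12 arrays. The authors deposited a table of linear intensities of 137488 reporters, 5000 of them random control probes. Their normalization before deposit is not stated in those sources. Its log2 values gave the log2 fold changes in the authors' deposited limma tables within 1e-05. The authors deposited 6 comparison tables, which hold log2 fold changes, statistics that are scores, p-values and q-values. Limma is named per the submitters' processing notes, without a version. Channel medians were 66.6 to 96.5, precision is limited by how many arrays there are, and no pair of channels held the same values.

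Intensities were put on the log2 scale and quantile normalized over the 24 channels, as planned for linear intensity, with the deposited values as an alternative. Knockout minus control was taken within each array and averaged over exchanged dyes, which repeat 1 RNA. The 6 replicate ratios were fitted together with limma 3.58.1 in R 4.3.3 (lmFit, eBayes) over 132488 reporters, with Benjamini-Hochberg adjustment and a threshold of 0.05. That fit gives each reporter the same spread in both backgrounds, also where its replicates spread unequally. Levels between backgrounds came from a limma fit of the 12 dye-averaged samples, and the comparison of knockout groups was added after the data had been seen. The pairing of knockout and control comes from the arrays they share per the labels. Deviations from the group mean of same-lettered samples correlated at 0.653, 0.618 and 0.601 in p53-/- cells, and at 0.284, -0.167 and 0.478 in Ha-RasV12 cells. Samples of different letters gave -0.489 to -0.0609 in p53-/- cells and -0.464 to 0.320 in Ha-RasV12 cells, where the ranges thus overlapped. The fit of ratios was also run on simulated channels, drawn independently and with the same spread in every group. In the real data exchanged dyes repeat 1 RNA, so that the simulation does not show how the fit does there. Tables were handled in Python 3.11.15 with pandas 2.3.3.

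A gene's value is that of its reporter with the highest mean. The rule names the 4 members with every reporter, E4f1, list genes past the threshold, receptor and protease partners, and the 5 genes most like each member, of which 1 is not reported here. Names came from the deposited tables or RefSeq accessions (17562 reporters, 4414 genes). Members and lists were chosen with earlier results of these data known. Alternatives were the scaling, the dye orientation, the replicate block, a filter on the dimmest 25% of reporters, a minimum fold of 2, the deposited tables and leaving out each replicate.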

Additional observations from a re-analysis of the deposited data

Results flagged for a closer look

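Knockout minus control differed between Ha-RasV12 and p53-/- cells, by a test of the difference itself (limma, adjusted p under 0.05), for 8 reporters of 3 members and for Mmp2. The difference in log2 fold change was 4.07, 3.73 and 4.74 for the Cxcl12 reporters. It was 3.37, 3.25 and 3.27 for those of Il33, and -3.24 and -3.01 for the pair of Cxcl5 reporters that passed. For Mmp2 it was 2.97. Across all reporters, 0.407% passed this test. The genes named here come from the authors' lists of changed probes, and this test uses the same ratios. Their passing is therefore not independent of the listing. Single samples far from their group were not sought, because a group holds 3 biological replicates and exchanged dyes are not further ones.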

How the results depend on the processing

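The number of reporters past the test depended strongly on the fit. For p53-/- cells it was 31, against 185 with that background fitted alone, 181 with 12 arrays as independent and 0 to 0 without 1 replicate, and 493, 503 and 949 in the authors' deposited limma table and SAM lists. For Ha-RasV12 cells it was 2981, against 1272 with no replicate block, 264 alone, 9884 with 12 arrays, 1956 with a minimum fold of 2, 1682 to 5627 without 1 replicate, and 4703 and 8601 in the authors' deposited limma table and 5% SAM list. For the difference it was 539, against 164 with no replicate block, 3428 with 12 arrays and 57 to 2106 without 1 replicate. Control groups differed for 5506 reporters (2385 higher and 3121 lower in Ha-RasV12 cells), against 1339 higher and 3587 lower on the deposited scale and 2047 to 10480 without 1 replicate. Knockout groups differed for 5673 (2865 higher and 2808 lower), against 1484 higher and 3250 lower on the deposited scale and 1744 to 7746 without 1 replicate.

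The rise of Cxcl12 in Ha-RasV12 cells and its difference between backgrounds passed for 3 of 3 reporters under every alternative run. That rise was 3.87 to 4.19 by the brightest reporter or the mean of the reporters. The rise of Il33 by its brightest reporter was 2.87 to 3.44. Il33 passed for 2 of 3 reporters with Ha-RasV12 ratios fitted alone. The sign turned for values that had not passed. Without 1 replicate, Cxcl12 in p53-/- cells ran from -0.03 (without C) to 0.56, Il33 there from -0.15 to 0.03 (without C), Ccl20 in Ha-RasV12 cells from -0.71 to 0.10 (without A), and Cxcl12 between knockout groups from -0.11 (without Ha-RasV12 A) to 0.18, with -0.01 without p53-/- B. With the knockout in Cy5 only, Cxcl12 in p53-/- cells was -0.20. The cause was not tested. Ccl20 counts as listed in the authors' deposited SAM lists although its q there is above 0.05. Signal over the control probes limits Ccl20, Il33 in p53-/- cells and Cxcl5 in Ha-RasV12 knockouts.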
